A study of Sus scrofa with 7 samples.

Results

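The genes described here encode 10 enzymes of glycolysis: HK1, GPI, PFKM, PFKP, ALDOA, TPI1, PGK1, ENO1, LDHA and LDHB. They were found by their symbol in the authors' deposited table of 16991 features, which lists 1 FPKM value (fragments mapped to the gene, scaled to transcript length and to library size) per gene and group. A row was matched for 9 of the 10, and each of the 9 had been tested by the authors; ALDOA, a muscle-type aldolase, is not analysed here. The series compared hypothalami of Duroc x Landrace x Large White piglets at postnatal day 45, every one carrying a T-shaped cannula in the distal ileum. The 4 control libraries came from piglets infused with 10 mL of 0.9% saline. The 3 antibiotic libraries came from piglets infused with an equal volume holding ampicillin (150 mg per kg per day), gentamicin (4) and metronidazole (30). The series title names neurotransmitters of the hypothalamus as its subject, and glycolysis is not mentioned in it.

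Glycolysis splits glucose into pyruvate in the cytosol and yields ATP and NADH without oxygen. Hexokinase traps glucose as glucose 6-phosphate, phosphofructokinase makes the committed and most tightly controlled step, and aldolase and triose phosphate isomerase deliver the 3-carbon sugars that the later enzymes turn into pyruvate. Lactate dehydrogenase then interconverts pyruvate and lactate, and its B subunit is known from mammalian tissues that use lactate while its A subunit is known from tissues that make it. The brain depends on glucose, and neurons and astrocytes are known to express different isozymes of several of these steps.

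Because the table holds 1 value per group, no spread between piglets could be computed and the depth of the libraries is unknown. All FPKM, fold, p and q values given here are those of the authors' deposited table or are computed from it, and only the authors' p and q can carry replicate error. How the libraries entered the authors' test was not given in the sources used here. Rose and fell are words kept for a q under 0.05 in that table. The smallest p in the deposited table is 5e-05, shared by 2081 features with q = 0.000336, so genes at that value cannot be ranked against each other. Hypothalamic peptide genes were present in the deposited values, with OXT at 310.1 FPKM in control and 96.8 in antibiotic and PMCH at 282 and 18.6. Both OXT and PMCH fell (each authors' q = 0.000336). The pituitary hormone gene PRL was below 1 FPKM in each group.

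Of the 9 measured enzyme genes 6 rose, 1 fell and 2 did not pass. HK1, GPI, PFKM, PFKP, ENO1 and LDHB were those that rose, LDHA fell, and TPI1 and PGK1 did not pass. Over all 13352 tested features 19.0% rose and 22.2% fell, against 66.7% of these 9 genes that rose. Their median log2 difference between antibiotic and control was 0.66, and that of all tested features was -0.03. With the unnamed rows described further on in place of HK1, PGK1 and LDHB, a choice made after the values had been seen, 4 of the 9 rose and the median log2 was 0.38. The authors' stricter significant call, which also asks for a 2-fold change, was met by PFKM and PFKP, and upward by 7.37% of all tested features. The other 4 that rose changed between 1.45-fold and 1.84-fold. Summed over the 9 genes, the deposited level was 876 FPKM in control and 1308 in antibiotic, a ratio of 1.49. The FPKM total over all rows differed the other way, being 1231512 in control and 563424 in antibiotic. The 10 highest rows held 55.0% of that total in control and 31.7% in antibiotic. The 9 genes held 0.0712% of the total in control and 0.232% in antibiotic.

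The direction of these differences was compared with features of like level and size. The 9 genes had mean levels between 20.6 and 283 FPKM and rows spanning 1283 to 37622 bases. Among the 1955 tested features within both ranges, 25.2% rose and 28.7% fell, with a median log2 of -0.05. In the level range alone 21.9% of 3205 features rose, and in the length range alone 23.0% of 7406 rose. The members thus lay above the shares of rising features in each of these subsets, which is a description of the group values and not a test.

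**Figure D1:**
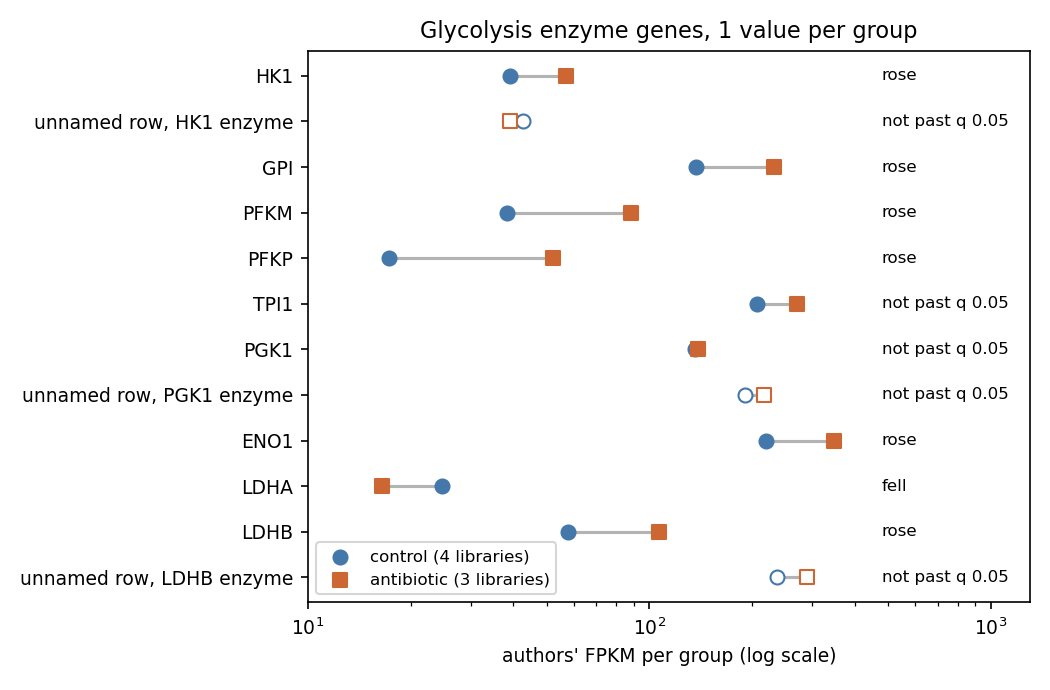
Levels of the 9 measured glycolysis enzyme genes and of 3 unnamed rows (open symbols), with FPKM on a log axis. The unnamed rows were set beside HK1, PGK1 and LDHB by their annotation and place in the gene order. Circles are the control and squares the antibiotic value, 1 per group and without error bars because none can be computed. The largest gaps are those of PFKM and PFKP, LDHA is the 1 named gene whose antibiotic value is lower, and the 3 unnamed rows show small gaps.

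**Figure D2:**
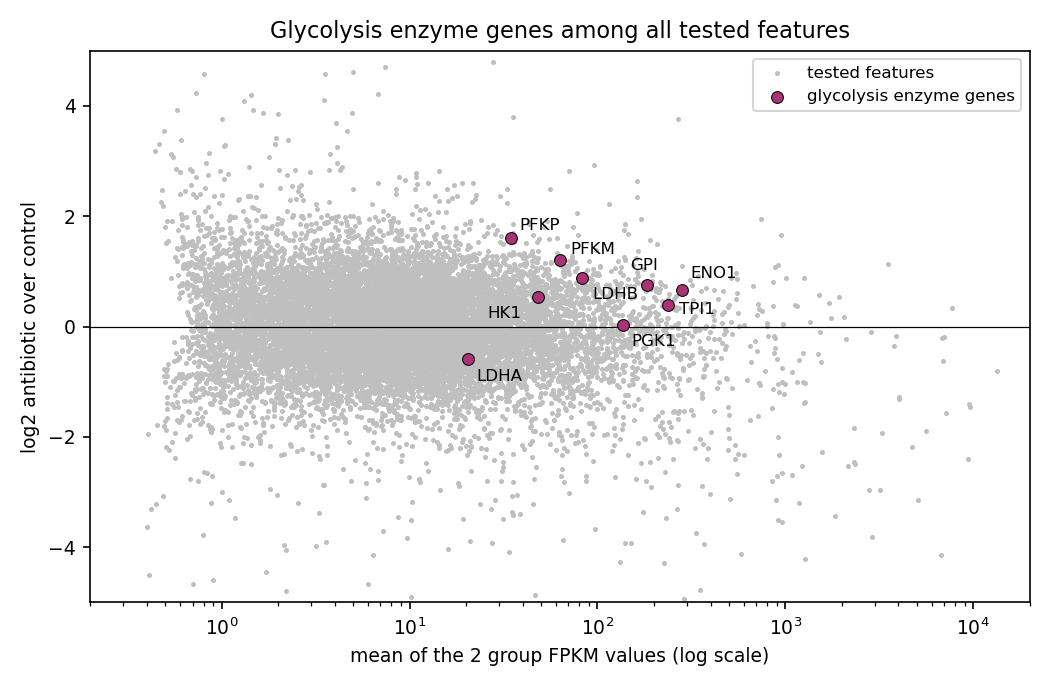
Log2 of antibiotic over control against the mean FPKM (log axis) for tested features in grey and the 9 glycolysis enzyme genes in purple; 17 finite features lie outside the axes and 13 with an infinite log2 are not drawn. Of the 9 genes 8 sit above 0 and LDHA sits below it, all in the upper part of the range of levels.

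Hexokinase, the entry step, was measured through HK1, the main hexokinase of brain, which binds to mitochondria. The row named HK1 lies at chromosome 14, 78486910 to 78521299, and had 39.1 FPKM in control and 56.8 in antibiotic. It rose 1.45-fold (authors' q = 0.00647). An unnamed row with the glycolytic process annotation, ENSSSCG00000027658, lies at chromosome 14, 78382161 to 78441076, between HKDC1 and TACR2. That is the place of HK1 in the RefSeq gene order of the pig assembly Sscrofa11.1, whereas the row named HK1 lies beyond TACR2 in the deposited table. This unnamed row had 42.8 FPKM in control and 39.0 in antibiotic (authors' q = 0.685). The 2 rows had like levels in control, but the unnamed row was slightly lower in antibiotic and did not pass. The rise of HK1 thus rests on the row that carries its name. Which of the rows holds more of the HK1 transcript cannot be read from the deposited values.

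HK2, the hexokinase best known from muscle and fat and from growing cells, fell from 14.6 to 9.05 FPKM (authors' q = 0.000336). The ratio of HK1 to HK2 was 2.68 in control and 6.28 in antibiotic with the named row, and 2.94 and 4.31 with the unnamed row in its place. The low-level genes HK3 and HKDC1 did not pass in the authors' table. HK3 stood at 4.62 and 4.87 FPKM (q = 0.798) and HKDC1 at 1.49 and 1.23 (q = 0.390). ADPGK, which uses ADP in place of ATP, stood at 12.9 and 13.6 FPKM (authors' q = 0.747).

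GPI, which converts glucose 6-phosphate to fructose 6-phosphate, was among the clearer rises. Its row at chromosome 6, 39516815 to 39548053, went from 137 FPKM in control to 231 in antibiotic, a 1.69-fold rise (authors' q = 0.000336). No other row of the deposited table overlaps it.

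Phosphofructokinase genes showed the largest rises among the 9 genes. PFKM, the muscle-type subunit that is also common in brain, lies at chromosome 5, 81676290 to 81694184, and rose from 38.3 to 88.4 FPKM, 2.31-fold (authors' q = 0.000336). PFKP, the platelet-type subunit, lies at chromosome 10, 73581209 to 73618830, and rose from 17.3 to 52.4 FPKM, 3.03-fold (authors' q = 0.000336). PFKL, the liver-type subunit, rose less, from 20.0 to 29.7 FPKM, 1.48-fold (authors' q = 0.00764). The 3 subunit genes together held 75.6 FPKM in control and 171 in antibiotic, a ratio of 2.26. PFKM held a nearly equal share of that sum in each group, 50.6% and 51.9%. The share of PFKP was 22.9% in control and 30.7% in antibiotic, and that of PFKL was 26.5% and 17.4%. These shares come from 1 value per group and have no error.

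The enzymes that make fructose 2,6-bisphosphate, the strongest known activator of phosphofructokinase, moved the same way in part. PFKFB3 rose from 13.5 to 22.9 FPKM (authors' q = 0.000625), and PFKFB4 rose from 3.45 to 6.08 FPKM (authors' q = 0.00162). PFKFB2, the heart-type enzyme, stood at 2.11 and 2.74 FPKM (authors' q = 0.401). TIGAR, which removes this activator, had 9.79 FPKM in control and 12.7 in antibiotic (authors' q = 0.108).

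The aldolase step was represented by ALDOC, the brain aldolase that is most abundant in astrocytes and in some Purkinje cells. ALDOC was one of the most abundant transcripts of the pathway and rose from 885 to 1630.0 FPKM, 1.84-fold (authors' q = 0.000336). TPI1, which interconverts the 3-carbon sugars that aldolase releases, lies at chromosome 5, 66272195 to 66278391. It had 207 FPKM in control and 270.2 in antibiotic, a ratio of 1.30 that narrowly missed the threshold (authors' q = 0.0553). Its interval in the deposited table is shared with SPSB2, which was below 1 FPKM in each group.

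The next steps, from GAPDH to phosphoglycerate mutase, held no gene that passed. GAPDH, which oxidises glyceraldehyde 3-phosphate, was the most abundant of the glycolytic rows, at 2280.5 FPKM in control and 1948 in antibiotic (authors' q = 0.444), and its interval is shared with 7 other rows. PGK1, which makes the first ATP of the pathway, lies at chromosome X, 71321307 to 71352751, and its deposited values of 136 and 139 FPKM were nearly equal (authors' q = 0.898). Its interval is shared with TAF9B, at 9.09 and 5.62 FPKM. An unnamed row annotated with phosphoglycerate kinase activity, ENSSSCG00000012439, lies at chromosome X, 71106627 to 71117970, between ATP7A and PGK1. It had 191 FPKM in control and 216 in antibiotic (authors' q = 0.402). Neither row of this enzyme passed, and reads of near-identical copies can be split between them. PGAM1, the brain-type phosphoglycerate mutase, stood at 435 and 569.9 FPKM (authors' q = 0.129), and PGAM2, the muscle type, at 5.60 and 8.91 (authors' q = 0.177).

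ENO1, the ubiquitous enolase, lies at chromosome 6, 63736882 to 63748851, and rose from 219.9 to 347 FPKM, 1.58-fold (authors' q = 0.00185). The neuronal enolase ENO2 is listed in a row joined with LRRC23, and this row rose from 102 to 140.5 FPKM (authors' q = 0.0347). The row of the muscle enolase ENO3, joined with RNF167, stood at 6.79 and 8.29 FPKM (authors' q = 0.469). The ratio of ENO1 to the ENO2 row was 2.15 in control and 2.47 in antibiotic. PKM, the pyruvate kinase of brain and muscle that forms pyruvate and ATP, rose from 362 to 566 FPKM, 1.56-fold (authors' q = 0.00352). PKLR, LDHC and GAPDHS, known from liver, blood and testis, were below 1 FPKM in each group and had not been tested.

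Of the rows named for lactate dehydrogenase, LDHA fell and LDHB rose. LDHA, the subunit common in tissues that make lactate, lies at chromosome 2, 43898276 to 43909479, and fell from 24.6 to 16.5 FPKM, 1.49-fold (authors' q = 0.00613). It was the 1 member of the 9 that fell, and its direction turned when the groups were scaled to equal FPKM totals. The row named LDHB rose from 58.0 to 107 FPKM, 1.84-fold (authors' q = 0.000336). That row spans 1283 bases at chromosome 2, 12622306 to 12623588. RefSeq's Sscrofa11.1 table has 2 entries named LDHB. The first of them coincides with an entry labelled pseudogene and lies, like the deposited row, next to CTNND1, and the other lies between KCNJ8 and GYS2.

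In the deposited table the place between KCNJ8 and GYS2 is held by an unnamed row, ENSSSCG00000000576, at chromosome 5, 55086947 to 55108253, annotated with L-lactate dehydrogenase activity. It was the most abundant row of this enzyme, at 235.8 FPKM in control and 290.0 in antibiotic, a ratio of 1.23 that did not pass (authors' q = 0.136). In control it was 4.07 times and in antibiotic 2.72 times the level of the row named LDHB. The sum of these 2 rows was 294 FPKM in control and 397 in antibiotic, a ratio of 1.35 for which no q exists. Reads of a short copy and of its parent gene can be exchanged between such rows, so the rise of the named row cannot be assigned to the gene between KCNJ8 and GYS2. The ratio of the named LDHB row to LDHA was 2.35 in control and 6.47 in antibiotic, and the ratio of the unnamed row to LDHA was 9.57 and 17.6. With either row the ratio to LDHA was higher in the antibiotic group, and no test of these ratios could be made.

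**Figure D3:**
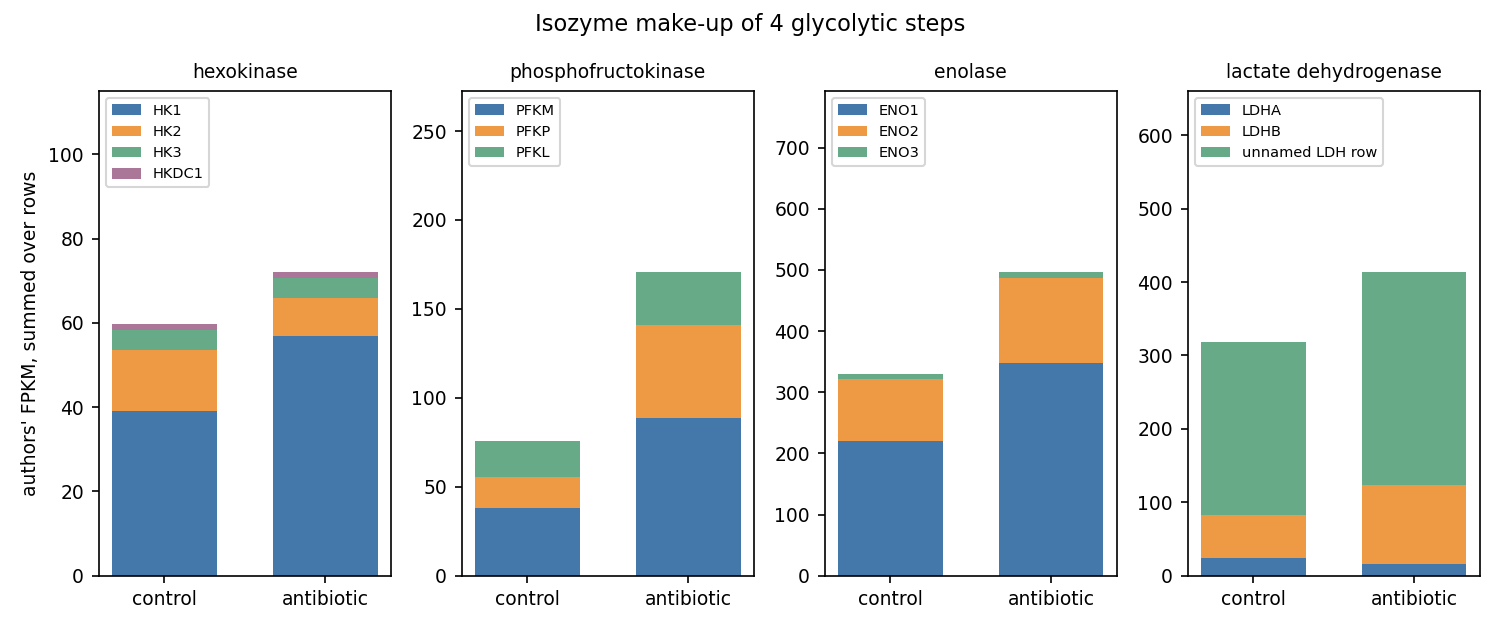
Deposited FPKM of the isozyme genes named in the legends for 4 steps, stacked within each group, on linear axes that start at 0 and differ between panels; there are no error bars because each group has 1 value. The phosphofructokinase bar is 2.26 times as tall in antibiotic, the HK2 band is thinner there, and the unnamed row makes up most of the lactate dehydrogenase bar.

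When the unnamed rows replaced HK1, PGK1 and LDHB, the 4 that rose were GPI, PFKM, PFKP and ENO1, while LDHA fell and 4 did not pass. Those calls did not depend on a row with such a counterpart.

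Of 4 scalings of the groups, 3 left the direction of each of the 9 genes as deposited and 1 turned LDHA. Setting the groups to an equal upper quartile moved the median log2 of all tested features by 0.13, trimmed mean scaling moved it by 0.04 and quantile normalization by 0.05. Across these 3 scalings and pseudocounts of 0.1 and 1 FPKM, the log2 of PFKP stayed between 1.55 and 1.73, that of PFKM between 1.19 and 1.39, and that of LDHA between -0.58 and -0.45. The log2 of ENO1 was between 0.66 and 1.18, that of GPI between 0.76 and 1.18, and that of TPI1 between 0.38 and 0.86, with each upper value from quantile normalization. PGK1 lay between 0.03 and 0.30. Scaling to equal FPKM totals, added after the data had been seen, moved every log2 by 1.13. It put LDHA at 0.55, all 9 genes and 91.9% of all tested features higher in antibiotic, and the median of all tested features at 1.10. Relative to the median of all tested features, the log2 of LDHA was -0.55 with and without this scaling.

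**Figure D4:**
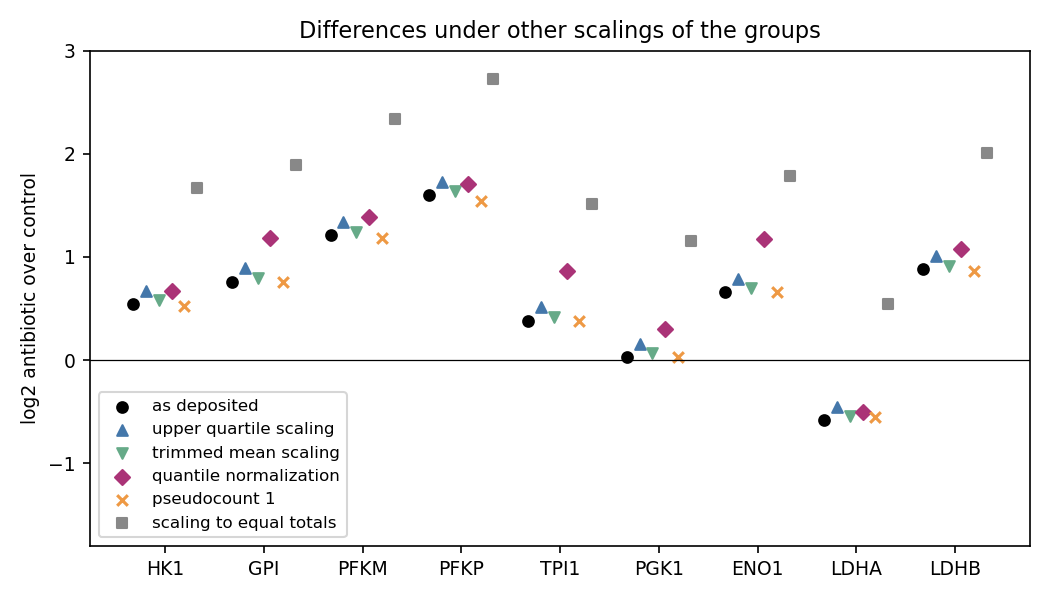
Log2 of antibiotic over control for the 9 genes as deposited (circles), after 4 scalings of the groups or with 1 FPKM added to each value; no error can be given. The markers of LDHA are below 0 except that for equal totals (squares), which lies 1.13 above the deposited value for each gene, and every marker of the other 8 genes is above 0.

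The other isozyme genes of the pathway were mixed. Counts of this list and the next can be read against all tested features, of which 19.0% rose and 22.2% fell. Of 20 symbols 17 had a row and 14 had been tested by the authors, of which 4 rose (ALDOC, PKM, PFKL and the row of ENO2), 1 fell (HK2) and 9 had a higher q. Their median log2 was 0.19, and it was 0.42 over the 10 with at least 5 FPKM in control or antibiotic. The list of glycolysis regulators and genes known as targets of hypoxia-inducible factor had 20 tested genes, of which 6 rose and 3 fell (median log2 0.37, and 0.16 over the 14 with at least 5 FPKM). NDRG1, a stress-responsive gene, rose from 161 to 252 FPKM, while EGLN1, the oxygen-sensing hydroxylase, fell from 60.1 to 36.0 and P4HA1, a collagen hydroxylase, fell from 27.4 to 15.6 (each authors' q = 0.000336). Besides NDRG1, those that rose were EPAS1, BNIP3, VEGFA, PFKFB3 and PFKFB4, and MYC was the other that fell. HIF1A itself had 55.3 FPKM in control and 45.3 in antibiotic (authors' q = 0.195).

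Carriers that bring glucose in and lactate out were mixed. Among 12 tested genes 4 rose and 2 fell, and the median log2 was 0.30. Over all tested features 19.0% rose and 22.2% fell. SLC2A1, the glucose carrier of the blood-brain barrier and of glia, rose from 59.6 to 90.4 FPKM (authors' q = 0.00486), and SLC2A3, the neuronal carrier, stood at 6.30 and 6.88 (authors' q = 0.590). SLC2A6, a lysosomal hexose carrier, rose 2.46-fold to 16.6 FPKM (authors' q = 0.000336), and SLC2A10, another hexose carrier, rose 2.78-fold from 0.515 FPKM (authors' q = 0.00781). Among the lactate carriers SLC16A3, the one known from glycolytic cells, rose from 0.745 to 1.89 FPKM (authors' q = 0.0239). SLC16A7, a lactate and pyruvate carrier of neurons, fell from 1.36 to 0.662 FPKM (authors' q = 0.00114), and EMB, a chaperone of such carriers, fell from 2.83 to 1.17 (authors' q = 0.000336). SLC16A1, the widely expressed lactate carrier, stood at 18.1 and 18.0 FPKM (authors' q = 0.967).

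Downstream of pyruvate, 9 of 18 tested citric acid cycle genes rose and 2 fell. Their median log2 of 0.51 stayed between 0.50 and 0.64 under the scalings and pseudocounts. MDH2, mitochondrial malate dehydrogenase, rose from 103 to 187 FPKM, while SUCLG2, the GTP-forming succinyl-CoA ligase subunit, fell from 61.0 to 20.8 (each authors' q = 0.000336). SDHD, a membrane anchor of succinate dehydrogenase, was the other that fell. Of 12 tested genes for pyruvate entry into mitochondria 3 rose, 2 fell and 7 did not pass (median log2 -0.25). Both lists can be read against all tested features, of which 19.0% rose and 22.2% fell. PC, pyruvate carboxylase, known from astrocytes in the brain, rose from 20.0 to 49.3 FPKM (authors' q = 0.000336). PDHX, a structural subunit of pyruvate dehydrogenase, fell from 32.7 to 17.9 (authors' q = 0.00114), and PDK2, a kinase that restrains that complex, rose from 105 to 157 (authors' q = 0.00879).

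Side branches of the pathway were mixed, with shares that can be read against the 19.0% of all tested features that rose and the 22.2% that fell. Of 6 tested pentose phosphate genes 2 rose and none fell, and TKT, transketolase, rose from 98.2 to 133 FPKM (authors' q = 0.0288). Of 21 tested glycogen genes 4 rose, 2 fell and 15 did not pass. PYGM, a glycogen phosphorylase, rose from 51.5 to 89.9 FPKM (authors' q = 0.000336), PHKG2, a catalytic subunit of its activating kinase, rose 1.63-fold (authors' q = 0.000625) and PHKG1, the muscle form of that subunit, rose 1.96-fold (authors' q = 0.00271). Of 7 tested genes of the NADH shuttles 1 rose, 1 fell and 5 did not pass, GOT2 rising from 14.2 to 22.7 FPKM (authors' q = 0.00312) and SLC25A13, a carrier of aspartate and glutamate, falling from 18.2 to 12.6 (authors' q = 0.0117). The medians of these 3 lists, -0.01, -0.01 and -0.08, crossed 0 under upper quartile scaling. Of all 8 lists with a median below 0, 6 had one above 0 after scaling to equal totals. Of 3 tested gluconeogenesis genes G6PC3, a widely expressed glucose-6-phosphatase, rose 1.90-fold (authors' q = 0.000336), and PCK2 and FBP1 did not pass. Of 3 tested adenylate kinase genes AK1 rose 1.74-fold (authors' q = 0.000336), AK3 fell 1.68-fold (authors' q = 0.00797) and AK5 did not pass.

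**Figure D5:**
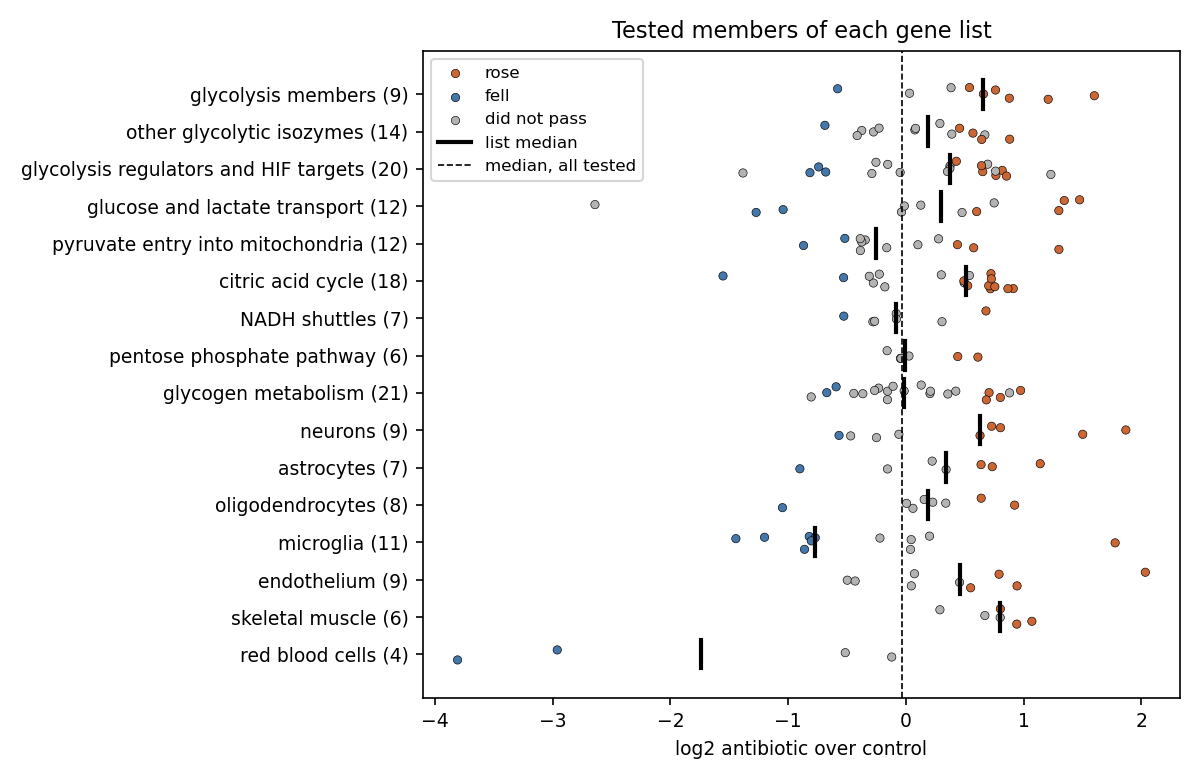
Log2 of antibiotic over control for each tested member of the glycolysis genes, the related lists and the main cell type marker lists, with the number tested in brackets; colour gives the call by the authors' q, thick bars are list medians and the dashed line is the median of all tested features. The 9 glycolysis genes have a median of 0.66, between those of the neuron markers at 0.63 and the skeletal muscle markers at 0.80.

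Cell type markers moved as well, and in whole tissue fewer cells of a type and less RNA per cell cannot be told apart. Marker counts here and in the next paragraph stand beside 19.0% of all tested features that rose and 22.2% that fell. Of 9 tested neuron markers 5 rose, 1 (STMN2) fell and 3 did not pass. Their summed level was 1884 FPKM in control and 2660.3 in antibiotic, of which UCHL1 held 628 and 1097. NEFM, a neurofilament subunit, rose from 60.3 to 220.2 (authors' q = 0.000336). The 3 that did not pass each had a lower antibiotic value. SNAP25 stood at 227 and 218 FPKM, SYT1 at 124 and 104, and MAP2 at 143 and 103. Of 7 tested astrocyte markers 3 rose, 1 (AQP4) fell and 3 did not pass, with a summed level of 3640.4 and 6528 FPKM. GFAP, the astrocyte filament protein, rose from 2185 to 4819 FPKM (authors' q = 0.00647). Of 8 tested oligodendrocyte markers 2 rose and 1 fell (summed level 10005 and 12213), of 11 microglia markers 1 rose and 6 fell (666 and 409), and of 9 endothelial markers 4 rose and none fell (128 and 199.7). No marker of these 5 lists with a row was listed at 0. The part of these shifts in the differences of the glycolysis genes was not tested.

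Markers of cells that could adhere to a hypothalamus block also differed. HBB and HBA, the globin genes of red blood cells, fell 14.0-fold and 7.78-fold (each authors' q = 0.000336), and the list's summed level was 11087 FPKM in control and 1121 in antibiotic. Of 5 tested choroid plexus markers 4 fell, none rose and FOLR1 did not pass, with TTR falling from 289 to 70.6 FPKM (authors' q = 0.000336). Of 6 tested skeletal muscle markers 3 rose (PYGM, ACTA1 and the row of MYH1; median log2 0.80), and PYGM, ENO3 and PGAM2 in that list are also glycolytic or glycogen genes of other tissues. ACTA1, the skeletal actin, had 2.58 FPKM in control and 5.41 in antibiotic (authors' q = 0.00467). Of 13 tested genes of the hypothalamic peptide list 5 fell and none rose. HDC, which encodes a histamine-making enzyme and not a peptide, was among these 5, falling from 20.5 to 5.66 FPKM (authors' q = 0.000336). In the pituitary list LHB was the 1 tested member (authors' q = 0.808). The part of these markers in the glycolysis values was not tested either.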

How the data were processed

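RNA-seq libraries had been made from 4 control and 3 antibiotic hypothalami with an Illumina TruSeq kit from 1 ug of total RNA, per the labels' protocols. The submitters' processing notes list Bowtie 0.12.2, susScr3 and mm8 without a role. The deposited table gives, per the file headers, 1 FPKM value per group, a log2 fold, a p-value and a q-value for each feature, plus a test statistic (a score by the authors, not used). The aligner settings, annotation and strand handling were not given in the sources used here, nor was the build of the coordinates.

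Here 6 blank rows were left out. Members and 20 related lists (247 symbols, 207 with a row) were chosen with earlier results of these data known. Symbols were matched by name, then through the Ensembl ID (16), then to rows joined with another gene (7), and where a symbol had more rows, the highest mean FPKM among tested rows decided. Named genes were all members, all tested isozymes and, per list, the 3 with the smallest p. Some genes of these lists are counted but not reported by name here, and others are named after their values were seen. RefSeq's Sscrofa11.1 table served for gene order only. The limma fit that a value per library would have allowed could not be run, so the authors' q at 0.05 was used over all 13352 tested features. Scaling and counting were tested on simulated data (Python 3.11.15, pandas 2.3.3, numpy 2.4.6). Scaling to equal totals was checked there on a uniform shift of all features only. No sequence is shown.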

Additional observations from a re-analysis of the deposited data

How the results depend on the processing

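No paired analysis was possible because the deposited table holds 1 value per group and no column of a single library; leaving out single libraries was not run for the same reason. The count of members that rose was 6 at a q under 0.05 and 6 under 0.01, and 2 when a 2-fold change was also required, where the count that fell went from 1 to 0. With the unnamed rows for HK1, PGK1 and LDHB, a choice made after seeing the data, 4 rose. The sign of the log2 of HK1 reversed, from 0.54 to -0.13, without passing (authors' q = 0.685). The log2 of LDHB was 0.30 and did not pass either (authors' q = 0.136). Summing named and unnamed rows gave a log2 of 0.23 for HK1, 0.12 for PGK1 and 0.43 for LDHB. Members higher by at least 2-fold were 2 as deposited, 5 after quantile normalization, whose cause was not tested, and 8 after scaling to equal totals, which adds 1.13 to every log2. That scaling, added after seeing the data, put the members' median at 1.79 and reversed LDHA from -0.58 to 0.55. Over the other settings the median was between 0.38 and 1.08. Upper quartile, trimmed mean and quantile scaling and both pseudocounts changed no member's sign. The q could not be recomputed under any scaling. With no depth or library values, the precision of each value is unknown.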

Other observations

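The deposited table itself marks 34 rows with the glycolytic process term, of which 30 had been tested, 11 rose and 3 fell, the median log2 being 0.34. Over all tested features 19.0% rose and 22.2% fell. The 34 rows were collected after the values had been seen. In 789 rows of the table the term field is blanked, so the set is partial. HK2 and LDHA were among the 3 that fell. LDHD, the mitochondrial D-lactate dehydrogenase, rose from 5.32 to 9.32 FPKM (authors' q = 0.0116). ENO4, an enolase-like gene of sperm, has 2 rows over 1 interval, at 68.4 and 21.5 FPKM (authors' q = 0.426) and at 0.854 and 0.731 FPKM (authors' q = 0.623). SLC2A13, a proton-coupled inositol carrier, had 394 FPKM in control and 63.2 in antibiotic without passing (authors' q = 0.217), although its ratio of 6.23 was larger than that of any of the 9 glycolysis enzyme genes.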
